A study of Homo sapiens with 6 samples.

Results

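The nuclear genes for the subunits of respiratory complex I were followed in PC9, an established cell line of human lung adenocarcinoma, after blocking a small RNA. They were taken as every gene of the deposited table whose symbol is NDUF followed by A, AB, B, C, S or V and a number, which gave 38 of 58174 genes. All 38 had enough counts to be tested. The knockdown group had 3 libraries from cells given an antagomir against tsRNA-5001a, and the control group had 3 libraries from cells given the negative control antagomir. Fragments of transfer RNAs are called tsRNAs, and antagomirs are modified antisense oligonucleotides that block small RNAs. Gene counts do not measure the tsRNA, so its loss was not examined. Whether libraries of 1 group stem from separate cultures is not stated in the labels, so the p-values reflect the spread between libraries, which may be technical. In whole cultures, fewer cells of a kind and less RNA per cell cannot be told apart.

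Complex I is the entry point of the respiratory chain in the inner mitochondrial membrane. Its matrix arm takes electrons from NADH through a flavin and a row of iron-sulfur clusters to ubiquinone, and its membrane arm pumps protons. The matrix arm and much of the membrane arm are built from nuclear-encoded subunits, while the core of the membrane arm is encoded by mitochondrial DNA. Around the catalytic core sit accessory subunits that stabilise the complex or are needed to assemble it. NDUFA4 carries the family name but is now assigned to complex IV, cytochrome c oxidase.

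Total gene counts were between 32342017 and 40066223 in the knockdown libraries and between 34623672 and 39615278 in the control libraries. The first principal component of all tested genes accounted for 41% of the variance, with the groups on opposite sides. All 6 epithelial markers examined were detected, with a summed TPM (deposited, a level scaled by transcript length and depth) of 12100 to 15700 in knockdown libraries and 13200 to 13900 in control libraries. The 4 immune markers summed to 61.1 to 77.7 TPM against 50.9 to 64.3 TPM in controls, and CD3E was at 0 in every control library. The 4 stromal markers summed to 15.5 to 26.3 TPM against 10.5 to 13.9 TPM, with PDGFRB past the test and higher after knockdown, and COL1A2 at 0 in every control library. The 3 endothelial markers summed to 17 to 24.4 TPM against 12.1 to 18.6 TPM. The part of these markers in the results was not tested.

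The complex I genes were lower after knockdown almost throughout, by a modest amount. Of 38 genes, 35 (92.1%) had a log2 fold change below 0, against 44.1% of all 19040 genes tested. The exceptions were NDUFA5, NDUFB3 and NDUFB4, and the count was 31 to 37 under other settings. Their median log2 fold change, knockdown over control, was -0.40, against 0.05 for all genes tested, and their range was -0.94 to 0.41. NDUFB2 alone passed a Benjamini-Hochberg adjusted p of 0.05 in edgeR's quasi-likelihood test. That is 1 of 38 (2.63%), where 1.17% of all tested genes passed in either direction and 0.0735% passed as lower.

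Non-overlap of the groups was far more frequent. For 23 genes (60.5%) all 3 knockdown libraries lay below all 3 control libraries, against 10.8% of all tested genes. For 1 gene, NDUFA5, all knockdown libraries lay above all controls, against 13.4% of all tested genes. The groups overlapped for the other 14. At an unadjusted p under 0.05, 22 genes (57.9%) were lower, against 6.71% of all tested genes. DESeq2 called 7 lower at an adjusted p under 0.05, where it called 1.14% of all tested genes lower. These were NDUFA1, NDUFA6, NDUFB2, NDUFB8, NDUFB9, NDUFS6 and NDUFV1. Among the 8421 genes in the same range of abundance, the median was -0.02, 53.0% were below 0 and 15.2% were lower without overlap.

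**Figure D1:**
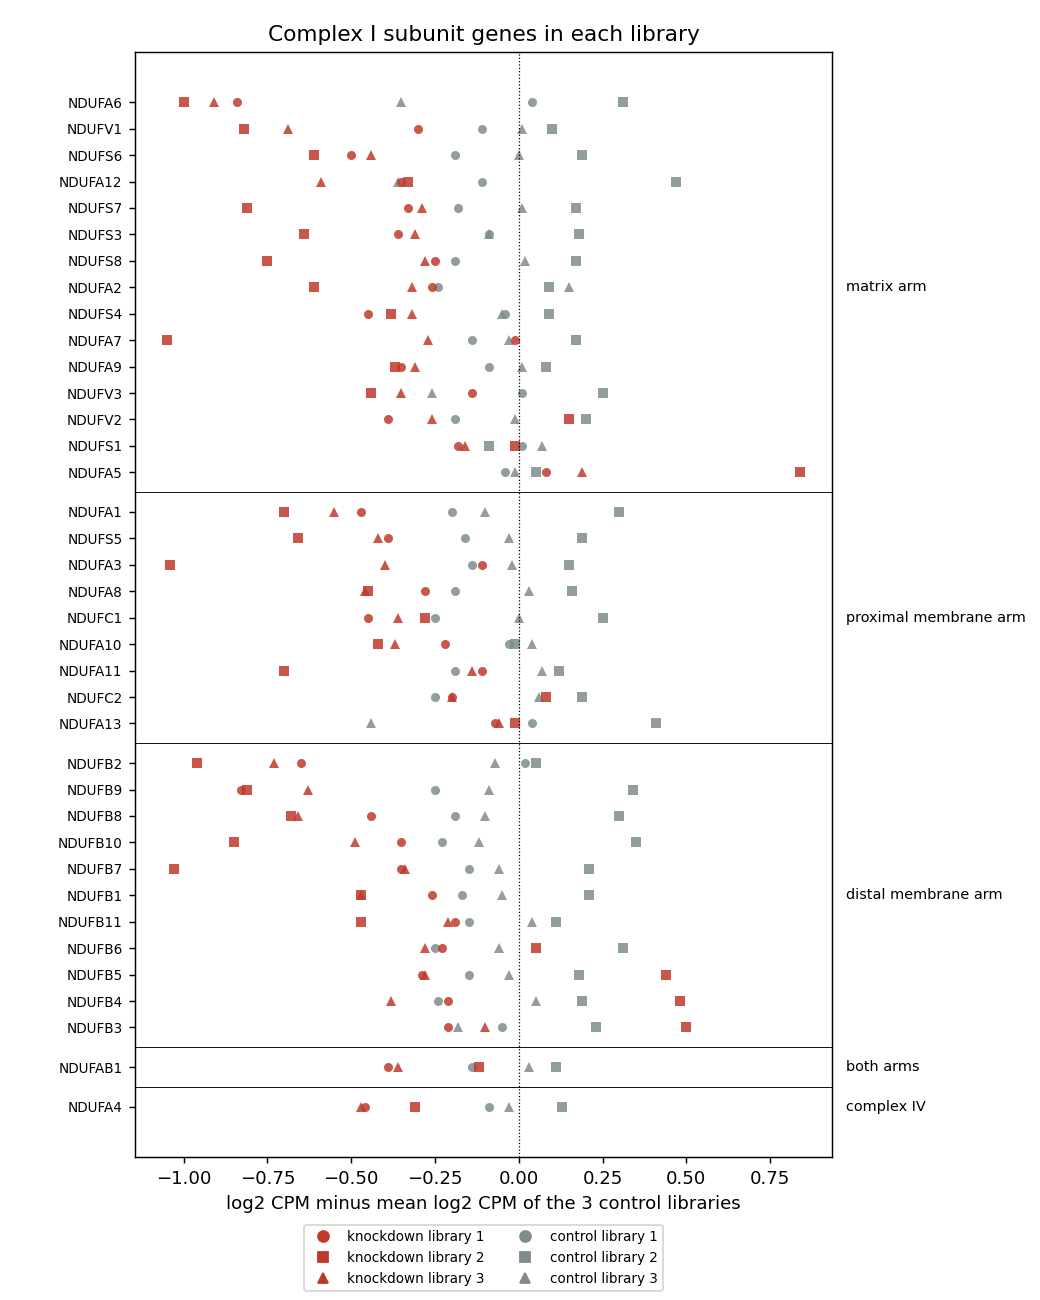
Each row is a gene, grouped by its place in the complex, and each point is a library: log2 CPM (TMM-scaled counts per 1e6) minus the mean of the 3 control libraries, knockdown in red and control in grey. In 22 of the 37 rows all red points lie left of all grey ones, and knockdown library 2 (red squares) is the farthest left or right in many rows.

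NDUFB2 and NDUFA6 had the smallest p-values, and NDUFB4 had a log2 fold change of 0.00, which was -0.32 without knockdown library 2. Their promoters are shown to set the sequence upstream of both ends of the range of p-values side by side. Each line holds the 200 bases before the RefSeq start on GRCh38.p14. NDUFB2 is at chr7:140696508-140696707 on the plus strand, NDUFA6 at chr22:42090773-42090972 on the minus strand, and NDUFB4 at chr3:120596136-120596335 on the plus strand. Capitals mark a GC box (GGGCGG on either strand, read by SP1-like factors) in the first and second, and the core of the NRF1 site (GCGCA, any base, GCGC) in the third, whose last copy runs past the start.
NDUFB2: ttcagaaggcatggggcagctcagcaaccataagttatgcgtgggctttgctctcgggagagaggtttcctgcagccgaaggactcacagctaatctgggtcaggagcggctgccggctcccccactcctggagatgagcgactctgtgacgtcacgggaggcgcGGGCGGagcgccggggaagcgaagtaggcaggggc
NDUFA6: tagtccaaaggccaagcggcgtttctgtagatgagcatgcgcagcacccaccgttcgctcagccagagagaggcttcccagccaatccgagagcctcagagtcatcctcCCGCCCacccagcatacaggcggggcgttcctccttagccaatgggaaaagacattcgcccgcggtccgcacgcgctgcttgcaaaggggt
NDUFB4: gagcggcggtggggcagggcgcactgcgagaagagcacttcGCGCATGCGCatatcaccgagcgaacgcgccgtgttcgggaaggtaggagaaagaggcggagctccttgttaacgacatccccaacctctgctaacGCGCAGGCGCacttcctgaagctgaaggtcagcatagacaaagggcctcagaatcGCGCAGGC

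Promoter windows from 250 bases before to 50 after the start were matched for 32 of the 38 genes, with 39 entries in all. The YY1 core (AAGATGGCG) was in 15.4% of these entries, against 1.7% of all 35116 windows of that length. It was carried by NDUFA6, NDUFA7, NDUFA9, NDUFS4 and NDUFS7, where it lies after the start, and by 1 of 2 entries of NDUFB8. Their median log2 fold change was -0.42, with a range of -0.94 to -0.35. The NRF1 core was in 15.4% of entries against 5.8% of all, and its 6 carriers had a median of -0.38 (range -0.47 to 0.0). The ETS core (CCGGAAG) was in 12.8% against 10.3%, with a median of -0.44 over 5 carriers (range -0.59 to -0.09). The GC box was in 66.7% against 45% of all, with a median of -0.40 over 21 carriers (range -0.94 to 0.41). Both strands were searched, and a match is a run of letters, not a measured binding site. With any of the 4 motifs, the median of the carriers lay within 0.04 of the median of all 38 genes.

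NDUFB2, an accessory subunit of the distal membrane arm, lies on chromosome 7 at 140690777 to 140722790, plus strand (ENSG00000090266). It had 41.7, 33.5 and 39.4 CPM in the knockdown libraries, against 66.2, 67.4 and 62.1 CPM in the controls. The groups were well apart, and every knockdown library was below every control. NDUFB2 fell by 0.77 on the log2 scale (SE 0.13), which is 41.5% below control, with an adjusted p of 0.0367 in edgeR and 0.000161 in DESeq2. Leaving out any library ended the edgeR call. The adjusted p was then 0.0599, 0.0625 and 0.147 without knockdown libraries 1, 2 and 3, and 0.105, 0.13 and 0.122 without control libraries 1, 2 and 3. The log2 fold change itself stayed between -0.88 and -0.70 in these fits. In the deposited TPM the difference was smaller, with 130, 118 and 133 TPM after knockdown and 151, 165 and 157 TPM in controls, or -0.31 on the log2(TPM + 1) scale (limma adjusted p = 0.16). Of its exon bases, 1239 (27.9%) overlap BRAF on the opposite strand. That share is of all annotated exon bases, and the share of its reads that lies there was not measured. Whether counting used strand is not given, so its count is uncertain.

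Of the 16 matrix arm genes, 15 were below 0 and 10 were lower without overlap, with a median of -0.41. None passed the edgeR test, 10 had an unadjusted p under 0.05, DESeq2 called 3 and limma-voom 0. Of all tested genes, 44.1% were below 0, 10.8% were lower without overlap and 6.71% were lower at an unadjusted p under 0.05. DESeq2 called 1.14% of all tested genes lower, and limma-voom called 220 of 19040 in either direction. All 7 genes of the catalytic core were below 0, with a median of -0.44 against -0.38 for the 30 accessory genes that remain after NDUFA4 is set aside. NDUFV1 encodes the subunit that binds NADH and the flavin, where electrons enter. It had 152, 107 and 117 CPM in knockdown libraries and 174, 202 and 189 CPM in controls. All knockdown values were below all controls, and the log2 fold change was -0.59 (SE 0.15, edgeR adjusted p = 0.132, DESeq2 adjusted p = 0.0322).

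NDUFV2, its partner with an iron-sulfur cluster, had 51.3, 74.4 and 55.9 CPM after knockdown and 58.8, 76.8 and 66.7 CPM in controls. Knockdown library 2 lay among the controls here, so the groups overlapped, and the log2 fold change was -0.16 (SE 0.17). NDUFS1, the large iron-sulfur subunit that passes electrons on, had 88.9, 101 and 90.2 CPM against 102, 94.9 and 106 CPM. These groups also overlapped, at -0.12 (SE 0.12). The log2 fold change of NDUFS1 was 0.01 when libraries were scaled by their totals alone, and that of NDUFV2 was 0.03 on the TPM scale.

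The core genes NDUFS7, NDUFS3 and NDUFS8 were each lower in every knockdown library than in any control. NDUFS7, which holds the last cluster before ubiquinone, had 70.2, 50.6 and 72.6 CPM in knockdown libraries against 78.4, 99.5 and 89.0 CPM in controls, a log2 fold change of -0.46 (SE 0.17). NDUFS3, a core subunit without a cluster, had 64.2, 52.7 and 66.4 CPM against 77.4, 93.2 and 77.4 CPM, at -0.44 (SE 0.14). NDUFS8, which carries iron-sulfur clusters, had 104, 74.1 and 102 CPM against 109, 140 and 126 CPM, at -0.42 (SE 0.17). Knockdown library 2 was the lowest of all libraries for these 3 genes. In edgeR the adjusted p was 0.236 for NDUFS7, 0.2 for NDUFS3 and 0.266 for NDUFS8, so none was called. NDUFS7 was the only complex I gene called by limma on the TPM scale, where it had 67.8, 63.2 and 76.4 TPM after knockdown and 103, 132 and 146 TPM in controls, a log2 difference of -0.87 against -0.48 from CPM.

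Among matrix arm accessory genes, NDUFA6 was the lowest of all 38. It encodes a LYR-motif subunit that binds the acyl carrier protein NDUFAB1, and lies on chromosome 22 at 42085525 to 42090955, minus strand. It had 34.3, 30.8 and 32.8 CPM in knockdown libraries against 63.2, 76.5 and 48.1 CPM in controls. Control library 3 was the lowest control and still above every knockdown library. The log2 fold change was -0.94 (SE 0.18), 47.8% below control, with an adjusted p of 0.0504 in edgeR, just outside the threshold, and 0.000211 in DESeq2. The edgeR adjusted p was 0.108, 0.13 and 0.19 without knockdown libraries 1, 2 and 3, and 0.114, 0.154 and 0.0418 without control libraries 1, 2 and 3. NDUFA5, an accessory subunit near the ubiquinone site, was the one gene higher without overlap. It had 13.7, 23.2 and 14.8 CPM after knockdown and 12.6, 13.4 and 12.9 CPM in controls, a log2 fold change of 0.41 (SE 0.21, edgeR adjusted p = 0.382). Knockdown library 2 held most of that difference, and the log2 fold change was 0.12 without it.

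The remaining matrix arm genes ran from -0.52 to -0.32 on the log2 scale. NDUFS6, a zinc-binding subunit, was at -0.52 and was called by DESeq2 (adjusted p = 0.0307) but not by edgeR (0.125). NDUFS4, a subunit whose loss causes Leigh syndrome, was at -0.38, and NDUFA9, which binds a nicotinamide nucleotide, was at -0.35. NDUFA2, a subunit with a thioredoxin-like fold, was at -0.40. These 4 were lower without overlap, while NDUFA12, NDUFA7 and NDUFV3 overlapped between the groups at -0.46, -0.38 and -0.32. Without control library 2, NDUFA12 was at -0.19 and NDUFV3 at -0.19, and without knockdown library 2, NDUFA7 was at -0.15. NDUFA7 shows how wide the knockdown group could be, with 43.0, 20.9 and 35.7 CPM against 39.1, 48.6 and 42.4 CPM.

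All 9 genes of the proximal membrane arm were below 0, with a median of -0.38, and 5 were lower without overlap. None passed edgeR's test, 5 had an unadjusted p under 0.05, DESeq2 called 1 and limma-voom 0. Over all tested genes, DESeq2 called 1.14% lower, and limma-voom called 220 of 19040 in either direction. Of all tested genes, 44.1% were below 0, 10.8% were lower without overlap and 6.71% were lower at an unadjusted p under 0.05. The lowest was the X-linked NDUFA1, a small membrane subunit needed for assembly. It had 148, 126 and 140 CPM in knockdown libraries and 178, 252 and 192 CPM in controls, without overlap. The log2 fold change was -0.59 (SE 0.15, edgeR adjusted p = 0.132, DESeq2 adjusted p = 0.0307). Of its exon bases, 341 (44.5%) overlap RNF113A on the opposite strand. The highest was NDUFA13, also known as GRIM-19, with 26.3, 27.3 and 26.3 CPM against 28.2, 36.4 and 20.2 CPM. The knockdown values lay inside the range of the controls, and the log2 fold change was -0.09 (SE 0.21). It was 0.04 when scaled by library totals alone and 0.13 without control library 2. Of its exon bases, 437 (16.1%) overlap AC011448.1 on the same strand. That gene had counts of 471, 332 and 596 in knockdown libraries and 752, 550 and 828 in controls. Whether reads of both genes were told apart was not tested. NDUFS5, a disulfide-bonded subunit facing the intermembrane space, was at -0.49, and NDUFA8, of the same fold, at -0.40. NDUFC1 was at -0.38 and NDUFA10, a subunit related to nucleoside kinases, at -0.34. NDUFA3, NDUFA11 and NDUFC2 overlapped between the groups at -0.47, -0.30 and -0.11, and NDUFC2 was at 0.02 when scaled by library totals alone. Without knockdown library 2, NDUFA3 was at -0.26 and NDUFA11 at -0.14.

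Of the 11 distal membrane arm genes, 9 were below 0 and 7 were lower without overlap, with a median of -0.41. Among all tested genes 44.1% were below 0 and 10.8% were lower without overlap. Besides NDUFB2, the lowest was NDUFB9, a LYR-motif subunit that binds the other copy of NDUFAB1. It had 40.5, 41.3 and 46.6 CPM in knockdown libraries against 60.7, 91.1 and 67.8 CPM in controls. The knockdown libraries were tight and all below the controls, at -0.77 (SE 0.17, edgeR adjusted p = 0.0854, DESeq2 adjusted p = 0.00305). NDUFB8, often used as the antibody marker of complex I, was at -0.61 and was also called by DESeq2 (adjusted p = 0.0272). Of its exon bases, 675 (33.8%) overlap AL133352.1 on the same strand. AL133352.1 had counts of 458, 354 and 938 in knockdown libraries and 526, 120 and 577 in controls. Whether reads of these 2 genes were told apart was not tested. NDUFB10 and NDUFB7, subunits with disulfide-bonded folds, were at -0.57 and -0.55, and NDUFB1 and the X-linked NDUFB11 at -0.41 and -0.29. In NDUFB11, 636 exon bases (44.9%) overlap RBM10 on the opposite strand.

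The other 4 genes of this arm had their highest knockdown value in library 2. NDUFB3 had 30.6, 49.7 and 32.9 CPM in knockdown libraries against 34.0, 41.4 and 31.1 CPM in controls. NDUFB4 had 49.0, 79.2 and 43.6 CPM against 48.2, 64.8 and 58.7 CPM. NDUFB5 had 35.0, 58.0 and 35.2 CPM against 38.5, 48.5 and 42.0 CPM. For each of these 3 accessory genes knockdown library 2 was the highest of all 6 libraries. Their log2 fold changes were 0.09, 0.00 and -0.01, and without that library NDUFB3 was at -0.17 and NDUFB4 at -0.32. NDUFB6 was at -0.17, with overlap. Their signs turned under other settings, which are listed with the dependence on processing.

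NDUFAB1, the mitochondrial acyl carrier protein present in both arms, had 87.6, 105 and 89.6 CPM in knockdown libraries and 104, 124 and 117 CPM in controls. Knockdown library 2 slightly exceeded control library 1, so the groups overlapped, at -0.29 (SE 0.13, edgeR adjusted p = 0.315). NDUFA4, the complex IV subunit, had 107, 119 and 107 CPM against 139, 161 and 145 CPM, without overlap. Its log2 fold change was -0.41 (SE 0.12, edgeR adjusted p = 0.16), and the median of the set was -0.40 with or without it.

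Levels per length were read from the deposited TPM. They spanned 14.3 to 846 TPM over the 38 genes and 6 libraries, and the order of the genes was nearly the same in both groups (Spearman correlation of the group means 0.951, n = 38 genes). NDUFS5 was the highest, at 668 ± 45.8 TPM after knockdown and 801 ± 43.7 TPM in controls (SD, n = 3 each). The lowest were NDUFV3, at 18.0 ± 3.12 TPM and 18.8 ± 3.97 TPM, and NDUFA5, at 23.3 ± 8.07 TPM and 15.2 ± 0.413 TPM, which do not differ from each other beyond their spread in knockdown libraries. NDUFB7 (353 ± 78.7 and 441 ± 27.4 TPM), NDUFA1 (330 ± 12.8 and 421 ± 48.4 TPM) and NDUFA3 (353 ± 89.6 and 396 ± 30.1 TPM) followed NDUFS5 in controls and were not separable from each other. NDUFS1, a core subunit, was among the lowest at 28.8 ± 12.9 TPM after knockdown and 41.1 ± 20.2 TPM in controls. Its TPM was 21.1, 21.6 and 43.7 in knockdown libraries and 54.9, 18.0 and 50.4 in controls, while its CPM was 88.9 to 106. Its level per length thus varied far more between libraries than its CPM, and the cause was not tested.

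**Figure D2:**
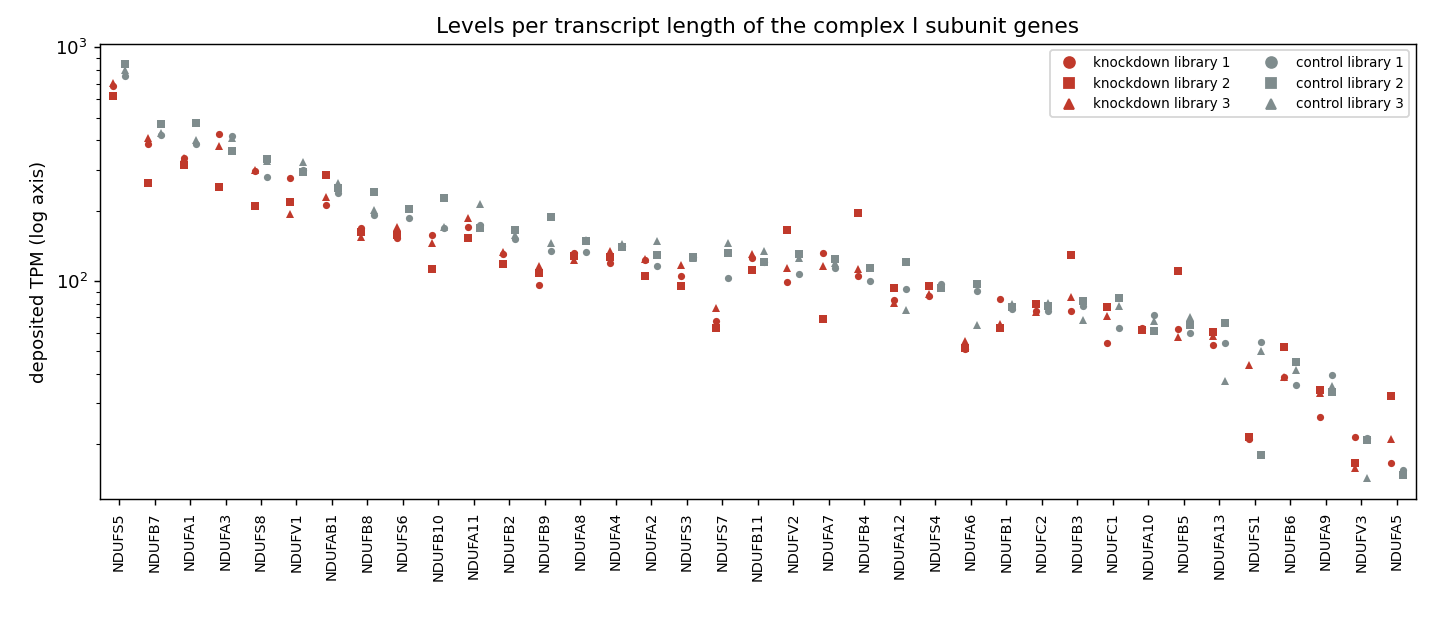
Deposited TPM on a log axis for 37 genes, ordered by the mean of the controls, with knockdown libraries in red left of control libraries in grey. NDUFS5 stands above the rest, and the range is 14.3 to 846 TPM.

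The libraries did not contribute equally. The median over the 38 genes, on the log2 scale relative to the mean of the controls, was -0.32, -0.47 and -0.35 in knockdown libraries 1, 2 and 3, and -0.15, 0.18 and -0.02 in control libraries 1, 2 and 3. Control library 2 was the highest control for 35 genes. Knockdown library 2 was the lowest of all 6 libraries for 21 genes and the highest for 4. These counts were not made over all tested genes, so whether they are particular to these genes was not tested. The medians over all tested genes were 0.01, 0.09 and 0.04 in knockdown libraries 1, 2 and 3, and -0.01, 0.01 and 0.0 in controls. Without knockdown library 2, 37 of 38 genes were below 0 and the median was -0.35. Then 27 (71.1%) were lower without overlap, against 17.4% of all tested genes. Without control library 2, the median was -0.33 and 24 genes (63.2%) were lower without overlap, against 13.4% of all.

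Knockdown library 2 differed from the other knockdown libraries along the GC content of the transcripts, which was 34.4% to 66.8% for these genes with a median of 50.6%, against 50.5% for all genes. Across the 38 genes, its log2 difference from the mean of knockdown libraries 1 and 3 had a Pearson correlation of -0.79 with GC content and a Spearman correlation of -0.84. Across 18978 tested genes these were -0.50 and -0.61. Genes within a library share its depth and preparation and are not independent replicates, so these values are descriptions.

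In 10 genes under 45% GC, the median difference of knockdown library 2 was 0.39 on the log2 scale, with all 10 above 0. In 16 genes from 45% to 55% it was -0.12, and in 12 genes over 55% it was -0.46. All tested genes in the same ranges had medians of 0.41, 0.02 and -0.30. The log2 fold change of the 38 genes had a correlation with GC content of -0.45 over all libraries and -0.04 without knockdown library 2. Over 18978 tested genes these were -0.06 and 0.07. Across the 3 ranges the median log2 fold change of the 38 genes was -0.14, -0.41 and -0.45 with that library, and -0.31, -0.40 and -0.31 without it. For all tested genes it was 0.14, 0.04 and -0.02 with that library, and -0.04, -0.0 and 0.06 without it. All 3 medians of the 38 genes were below 0 with and without that library. The 6 genes on chromosome 19, all at 55.7% GC or more, had a median of -0.42 for the log2 fold change, and the 38 genes lay on 18 chromosomes. Removing the GC trend, a fit chosen after the data were seen, left the median of the set at -0.42.

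**Figure D3:**
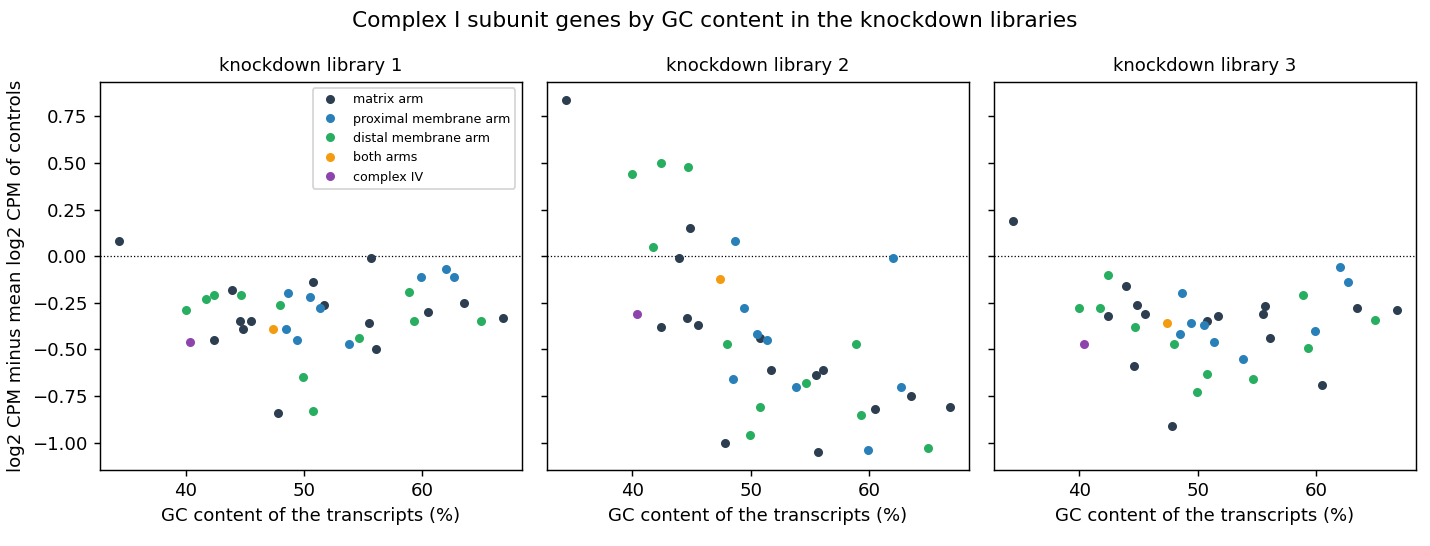
Each point is 1 of 37 genes, with the GC content of its transcripts on the x axis and its log2 CPM relative to the mean of the controls on the y axis, in knockdown libraries 1, 2 and 3. Libraries 1 and 3 are nearly flat below 0, and library 2 slopes down from low to high GC content.

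Many of these genes start beside a gene on the opposite strand. Starts were taken here as the upstream boundary of the annotated gene, not as the RefSeq start used for the promoters. Of the 38, 19 had a tested opposite-strand gene starting within 1000 bases of that boundary, before it or inside the gene. Of those neighbours, 17 were protein coding. For NDUFS3 the boundary is 47565336, but its promoter window is 47578824 to 47579123. For NDUFV3 these are 42879644, and 42893059 to 42893358. Their neighbours CELF1 and WDR4 thus start far from the RefSeq starts. The pairs were not rebuilt from RefSeq starts. The neighbours were chosen for study after the data were seen. The median log2 fold change of the 17 coding neighbours was 0.01, with 8 of 17 below 0, against 44.1% of all tested genes. It was -0.38 for the 17 complex I genes beside them. The median of the neighbours lay between -0.06 and 0.14 under other settings. Of the 17, edgeR and limma-voom called 0 at the adjusted p, DESeq2 called 1 (EEF1B2), and 2 (RPS28 and EEF1B2) had an unadjusted p under 0.05. Among all tested genes, DESeq2 called 1.14% lower, and 6.71% were lower at an unadjusted p under 0.05.

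The pairs show how far neighbours can differ. NDUFB9 was at -0.77 and TATDN1 at -0.07, and NDUFB8 was at -0.61 and HIF1AN, which hydroxylates HIF, at 0.12. NDUFA1 was at -0.59 and RNF113A at 0.08. Each of these neighbours starts inside the complex I gene, and the pairs share 187, 325 and 341 exon bases on opposite strands. Whether counting used strand is not given, so the counts of such a pair may not be separate, which was not tested. In 2 of 17 pairs the neighbour was lower without overlap, a share near the 10.8% of all tested genes. RPS28, a ribosomal protein gene beside NDUFA7, was at -0.57 (edgeR adjusted p = 0.287; -0.35 without knockdown library 2), and EEF1B2, a translation elongation factor gene beside NDUFS1, was at -0.55 (edgeR adjusted p = 0.0704). MRPL36, a mitochondrial ribosomal protein gene beside NDUFS6, was at -0.71 with overlap and at -0.02 without control library 2.

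**Figure D4:**
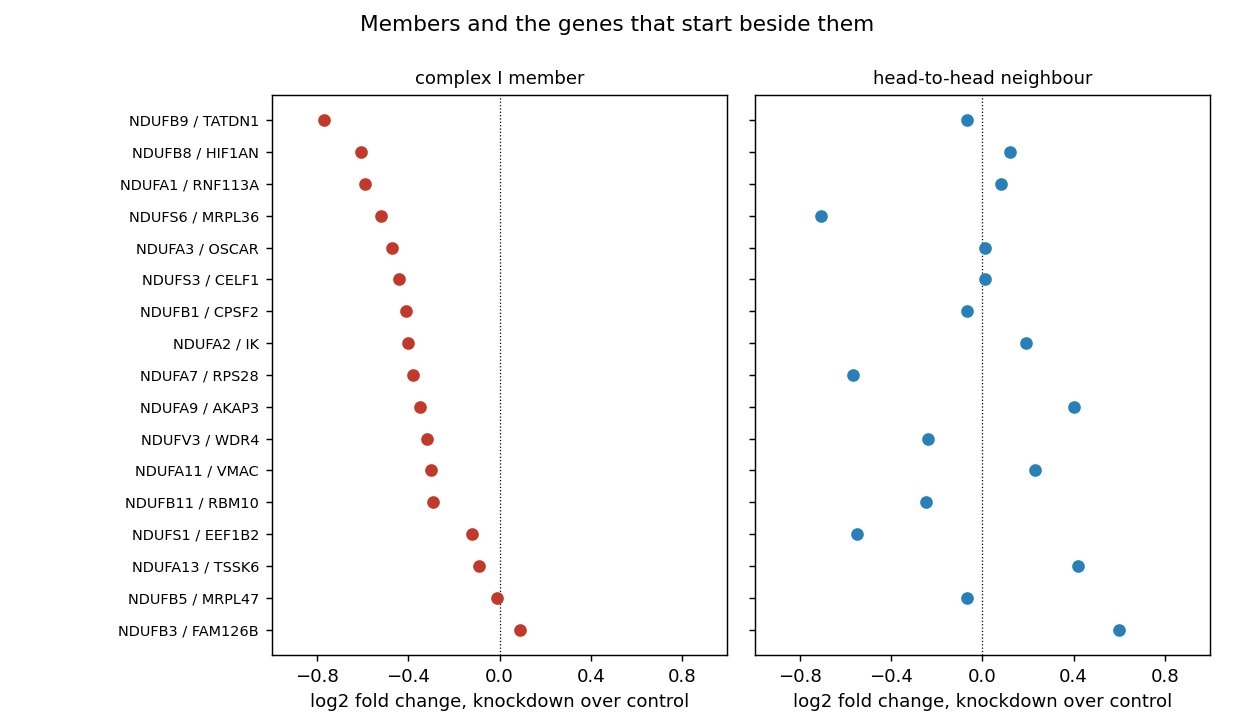
Log2 fold change, knockdown over control, of 17 complex I genes (left) and of their protein-coding neighbours (right), one pair per row. Each neighbour starts on the opposite strand, within 1000 bases of the annotated gene boundary, before it or inside the gene. The left points are below 0 in all rows but NDUFB3, with NDUFB5 and NDUFA13 close to 0 and of either sign across settings, while the right points lie on both sides.

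The rest of the complex I programme was examined with 4 further gene lists. The 7 mitochondrially encoded subunits were all below 0, with a median of -0.37, but none was lower without overlap. None passed edgeR's, DESeq2's or limma-voom's adjusted p, and 1, MT-ND2, had an unadjusted p under 0.05. Among all tested genes 44.1% were below 0, 10.8% were lower without overlap and 6.71% were lower at an unadjusted p under 0.05. MT-ND2 had 2830, 2540 and 2300 CPM in knockdown libraries against 3320, 4610 and 2780 CPM in controls, at -0.48 (SE 0.18, edgeR adjusted p = 0.242). Control library 2 stood highest, and without it the median of the 7 was -0.17. The median was -0.12 on the TPM scale and -0.03 with the abundance trend removed. MT-ND6 was at -0.45, and MT-ND3 and MT-ND4L, the highest of the list, were at -0.28 and -0.29.

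The 18 assembly factors, which build the complex but are not part of it, had a median of -0.08. Of them, 15 were below 0 and 3 lower without overlap, against 44.1% and 10.8% of all tested genes. The median was 0.05 when scaled by library totals alone and 0.10 on the TPM scale. The adjusted p of edgeR, DESeq2 and limma-voom called 0, and 0 had an unadjusted p under 0.05. The lowest were ECSIT, a member of the complex that assembles the membrane arm, at -0.42 (edgeR adjusted p = 0.305), and NDUFAF8 at -0.36. The highest were TMEM186 at 0.10 and NDUFAF6 at 0.07.

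The 14 genes of iron-sulfur cluster assembly, which supply the clusters of the matrix arm, had a median of -0.13, with 12 below 0. It was -0.0029 when scaled by library totals alone and 0.06 on the TPM scale. Among all tested genes 44.1% were below 0 and 6.71% were lower at an unadjusted p under 0.05. None of the 14 was called by the 3 tools, and 2 had an unadjusted p under 0.05. These were NFU1, a late carrier of clusters to their targets, at -0.48 (edgeR adjusted p = 0.199) and without overlap, and its partner BOLA3 at -0.44. The highest were LYRM4, which stabilises the cysteine desulfurase, at 0.13 and ISCA1 at 0.11.

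Of 11 transcription regulators of respiratory genes, 10 were tested. PPARGC1A was too low to test, with 6, 10 and 6 counts in knockdown libraries and 0 in every control library. The median of the 10 tested was 0.09, with 8 above 0, none called by the 3 tools and 0 with an unadjusted p under 0.05. Of all 19040 tested genes, 10651 were above 0. YY1 was at 0.27 and GABPA, the ETS factor of respiratory genes, at 0.26, while GABPA was at -0.11 without knockdown library 2. The lowest were TFB1M, which methylates mitochondrial ribosomal RNA, at -0.19 and the coactivator PPRC1 at -0.11.

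The difference between the complex I genes and all genes held its size across the ways of processing tried. The median of the 38 genes minus that of all genes tested was -0.45 with TMM scaling, and between -0.36 and -0.55 under the other settings. Scaling by library totals alone placed the median of all genes at 0.17, and the TPM scale at 0.21, and the median of the 38 genes was -0.28 and -0.17 there.

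**Figure D5:**
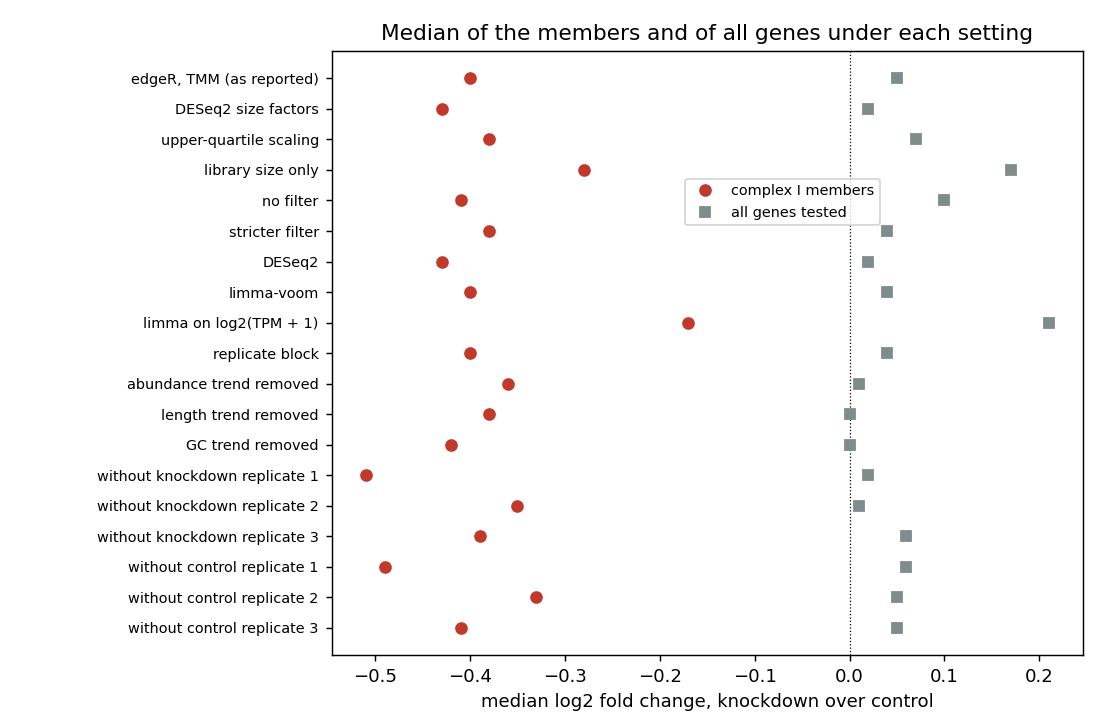
Median log2 fold change, knockdown over control, of the 38 complex I genes (red) and of all genes tested (grey) under each way of processing. The red points stay left of the grey ones in every row and are nearest to 0, at -0.17, on the TPM scale.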

How the data were processed

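RNA of PC9 cells was sequenced on an Illumina platform in 3 knockdown and 3 control libraries, and, per the labels' protocols, reads were quality-controlled, mapped and counted per gene by the authors. The deposited table holds counts, which all tests used, TPM values, which were used for levels and for 1 alternative test, and FPKM values deposited by the authors, which were not used. Aligner, counting program and strand setting: not given in the sources used here. By the submitters' processing notes the build is hg19, but 56007 of 57836 genes shared with GENCODE release 29 (96.8%) have the coordinates of GRCh38 there, as do 36 of the 38 complex I genes, so printed coordinates are the table's and read as GRCh38. Exons of 22 of these genes overlap another gene (17 on the opposite strand, 13 on the same), and named pseudogenes of 17 of them had at most 1.06% of the parent's counts.

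Low genes were dropped by filterByExpr (minimum 10 counts), and the rest were scaled by TMM and tested with edgeR 4.0.16 in R 4.3.3 (quasi-likelihood, Benjamini-Hochberg over 19040 genes at 0.05). CPM are counts per 1e6 of the TMM-scaled total. The biological coefficient of variation was 22.9%, and chi-square per degree of freedom within a group was 29.9 to 74, so no pair of libraries was taken as 1 library deposited in duplicate. In simulated data of 19040 genes at these depths, of which 18580 were tested, 3.08% of genes changed 1.5-fold, 34.3% at 2-fold and 92.3% at 4-fold were recovered, with 7 unchanged genes called. Same-numbered libraries did not deviate together (correlations 0.01, -0.08 and -0.03), so numbers were not taken as pairs.

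Alternatives were other scalings, no filter and a minimum of 50 counts, DESeq2 1.42.0, limma-voom and limma on log2(TPM + 1) in limma 3.58.1, leaving out each library, a block by replicate number, and removal of abundance, length and, added after seeing the data, GC trends. The genes, lists and tests were chosen with earlier results of these data known. Values in every library were given for genes past the test, the lowest and highest of each structural class and the catalytic core. In the other lists, the 2 lowest and 2 highest were named. NDUFA7, NDUFB4, NDUFB5, NDUFB9 and NDUFAB1 were given in full, and other genes named, after their values were seen. Values of 1 of the 38 genes are not reported here on their own, and the gene is not plotted, but it enters the counts and medians. DMAC1 and DMAC2 stand in the table under older symbols. Lengths and GC content came from GENCODE 29, promoters from RefSeq, and figures from matplotlib 3.10.9.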

Additional observations from a re-analysis of the deposited data

How the results depend on the processing

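The count of all genes past the test was 223. It was 147 with no filter, 143 with the stricter filter, 701 with DESeq2, 397 with limma on log2(TPM + 1), 126 with the abundance trend removed, 423 with the GC trend removed and 64 to 114 when 1 library was left out. The count of complex I genes past the test was 1. It was 0 with no filter and with the abundance trend removed, 7 with DESeq2, 2 with the length trend removed, 3 with the GC trend removed, and 0 to 1 when 1 library was left out. The median of the set moved beyond the spread between libraries only on the TPM scale, to -0.17, and lay between -0.51 and -0.33 when 1 library was left out. With the replicate number as a block, although same-numbered libraries did not deviate together, 34 genes and 0 complex I genes passed, NDUFB2 had an adjusted p of 0.16 in edgeR, and the median was -0.40. The cause of these changes was not tested. Some alternatives also bring fewer libraries or a different number of genes, which was not separated from their other effects.

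Signs turned for the genes given here, among them GABPA, at 0.26 over all libraries. NDUFB4 was at -0.03 with DESeq2 and with its size factors, -0.0023 with no filter, -0.04 with limma-voom and with the replicate block, and -0.09 with the GC trend removed. NDUFB5 was at 0.0028 with upper-quartile scaling, 0.12 by library totals, 0.02 with the stricter filter, 0.18 on the TPM scale, 0.0048 with the abundance trend removed and 0.04 with the length trend removed. By library totals, NDUFA13 was at 0.04, NDUFC2 at 0.02, and NDUFS1 and PPRC1 at 0.01. On the TPM scale, NDUFA13 was at 0.16, NDUFB6 at 0.07, NDUFV2 at 0.03 and PPRC1 at 0.13. With the GC trend removed, NDUFB3 was at -0.04, NDUFAF6 at -0.0038 and ISCA1 at -0.004. Leaving out 1 library gave -0.28 to 0.13 for NDUFA13, -0.17 to 0.21 for NDUFB3, -0.32 to 0.16 for NDUFB4, -0.30 to 0.11 for NDUFB5, -0.29 to 0.0034 for NDUFB6, -0.26 to 0.43 for LYRM4, -0.11 to 0.20 for ISCA1 and -0.11 to 0.41 for GABPA. In simulated data at these depths 3.08% of genes changed 1.5-fold were called, over all abundances. Whether this bears on the number of complex I calls was not tested.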
